A study of Mus musculus with 24 samples.

Results

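The genes described here are 7 transcription regulators of cardiac and lateral mesoderm: Hand1, Foxf1, Hand2, Mef2c, Myocd, Isl1 and Nkx2-5. They were chosen by name, with earlier results of these data known, so their counts beside those of all genes are descriptive. Each was read on the probe set that the platform annotation pairs with that 1 gene symbol, and on the probe set of highest mean where a gene had several. These factors make up 7 of the 19938 genes with a usable probe set. The study hybridised RNA to 24 arrays of the Affymetrix Mouse Gene 1.0 ST type, whose probes are spread over the full length of a transcript. Undifferentiated mouse embryonic stem cells (ESCs) were sampled on day 0, and embryoid bodies, the aggregates in which such cells differentiate, on days 3 and 7. Knockout (KO) cells lacked Eed and came from the lines E14 and J1, while wild-type (WT) cells came from the lines J1 and V6.5. Each of these 4 cell clones gave 2 arrays on each day, so that a genotype had 4 arrays a day, and J1 was the line represented in both genotypes. An n of 4 below counts these arrays, which came from 2 clones. E14 occurred only as KO and V6.5 only as WT, so outside J1 line and genotype cannot be told apart. All clones shared their culture: per the labels' protocols, ESCs were grown with LIF, a cytokine that holds them undifferentiated, on mitomycin-inactivated embryonic fibroblasts (MEFs). They were depleted of MEFs and then differentiated in hanging drops without LIF. The labels give the cell type as embryonic stem cells on all 3 days. They do not say whether the 2 arrays of a clone and day came from separate cultures, so the p-values measure a spread between samples that may be technical.

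EED belongs to the core of the Polycomb complex PRC2, whose methylation of histone H3 marks silent developmental genes, and genes for mesodermal transcription factors are well-known Polycomb targets in ESCs. HAND1 and HAND2 are basic helix-loop-helix factors of the heart tube, lateral mesoderm and extraembryonic tissues, and FOXF1 is a forkhead factor of splanchnic lateral plate and extraembryonic mesoderm. MEF2C is a MADS-box activator of muscle genes, and MYOCD is a coactivator of SRF in heart and smooth muscle. ISL1 is a LIM homeodomain factor of cardiac progenitors that also acts in motor neurons, and NKX2-5 is a homeodomain factor of early heart muscle.

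Levels are the deposited log2 values, so a difference of 1 is a 2-fold change, and a gene was called in a comparison when its adjusted p in limma was under 0.05 and its difference was at least 2-fold. Eed averaged 7.29, 6.34 and 6.3 in KO arrays on days 0, 3 and 7, against 10.73, 10.03 and 9.53 in WT arrays, and the genotypes did not overlap on any day. The 2 WT J1 arrays of day 7 stood apart from the other repeats. They correlated at r = 0.962 over genes and differed by 2-fold or more at 1256 genes, whereas the other 11 repeat pairs correlated at 0.99 to 0.995 and differed by that much at 21 to 163 genes. Among the 7 factors their gap was 1.85 for Hand2, 1.63 for Mef2c and 0.58 for Myocd, each above the widest gap in any other repeat pair (0.66, 0.68 and 0.42 for these genes). The gap was 0.35 or less for the remaining 4 factors. The value without both is given too for each factor's day 7 difference between KO and WT. It is an alternative chosen after seeing the data. Without both, the WT arrays of day 7 are those of V6.5 alone, a line that has no KO here. Line and genotype therefore cannot be told apart in any day 7 value given without both, and the comparison within J1 is lost. For some gene lists the calls without both are given. Day 7 differences of other genes, medians, counts without overlap and correlations are given only with these arrays included. Leaving them out also moves the spread estimated for a gene, and with it the adjusted p-values of comparisons that do not use these arrays.

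Promoter sequences were at hand for 4 of the 7 genes in RefSeq (mouse build GRCm38.p6). Shown are the 250 bases before the annotated start of Hand2, which was lower in KO arrays on day 7, of Isl1, which rose in both genotypes, and of Nkx2-5, which varied least of the 7. They lie at chr8:57320733-57320982 (plus strand), chr13:116309689-116309938 (minus strand) and chr17:26841566-26841815 (minus strand), and are written 5′ to 3′ on the strand of the gene. The Nkx2-5 window lies inside the annotated span of its gene, chr17:26838664-26844988, whereas those of Hand2 and Isl1 lie just outside theirs. Its counts below are therefore not from a window of the same kind. Capitals mark GATAA on either strand, the core of GATA factor sites (TTATC on the opposite strand), and CANNTG, the E-box that helix-loop-helix factors recognise.
Hand2: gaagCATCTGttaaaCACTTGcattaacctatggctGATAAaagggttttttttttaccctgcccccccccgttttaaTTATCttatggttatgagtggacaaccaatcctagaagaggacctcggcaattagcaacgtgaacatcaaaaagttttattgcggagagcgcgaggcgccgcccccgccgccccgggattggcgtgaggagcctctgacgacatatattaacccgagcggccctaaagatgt
Isl1: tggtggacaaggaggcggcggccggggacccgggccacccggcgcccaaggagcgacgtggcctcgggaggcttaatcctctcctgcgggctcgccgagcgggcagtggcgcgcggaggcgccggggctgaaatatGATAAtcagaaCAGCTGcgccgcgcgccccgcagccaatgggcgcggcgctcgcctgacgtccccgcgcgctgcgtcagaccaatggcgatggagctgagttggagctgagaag
Nkx2-5: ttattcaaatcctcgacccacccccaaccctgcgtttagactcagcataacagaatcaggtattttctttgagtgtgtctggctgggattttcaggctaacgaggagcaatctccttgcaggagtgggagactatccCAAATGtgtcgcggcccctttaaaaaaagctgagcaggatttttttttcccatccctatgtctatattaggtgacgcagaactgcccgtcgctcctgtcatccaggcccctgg
GATAA or its complement occurred 2 times before Hand2, 1 time before Isl1 and 0 times before Nkx2-5, and CANNTG occurred 2, 1 and 1 times. Of 32851 RefSeq windows of this length, 22.6% held GATAA on either strand and 66.2% held CANNTG. The windows differed more in CpG dinucleotides, which are dense at many Polycomb targets. Isl1 had 33 CpGs, more than 96.0% of all windows, Hand2 had 15 and Nkx2-5 had 8, against a median of 6. The 3 annotated starts of Mef2c had 1, 6 and 4.

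On day 7, 4 of the 7 factors were lower in KO than in WT arrays: Foxf1 by 7.74-fold, Hand1 by 5.91-fold, Mef2c by 2.98-fold and Hand2 by 2.63-fold. None was higher. Over all genes tested, 1.28% were called lower in KO on that day and 3.08% higher. The median difference of the 7 factors was -1.40, against -0.04 over all genes. For 5 factors, Myocd added to the 4 above, every KO array was below every WT array, an order found for 7.13% of all genes. Isl1 and Nkx2-5 had overlapping genotypes.

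**Figure D1:**
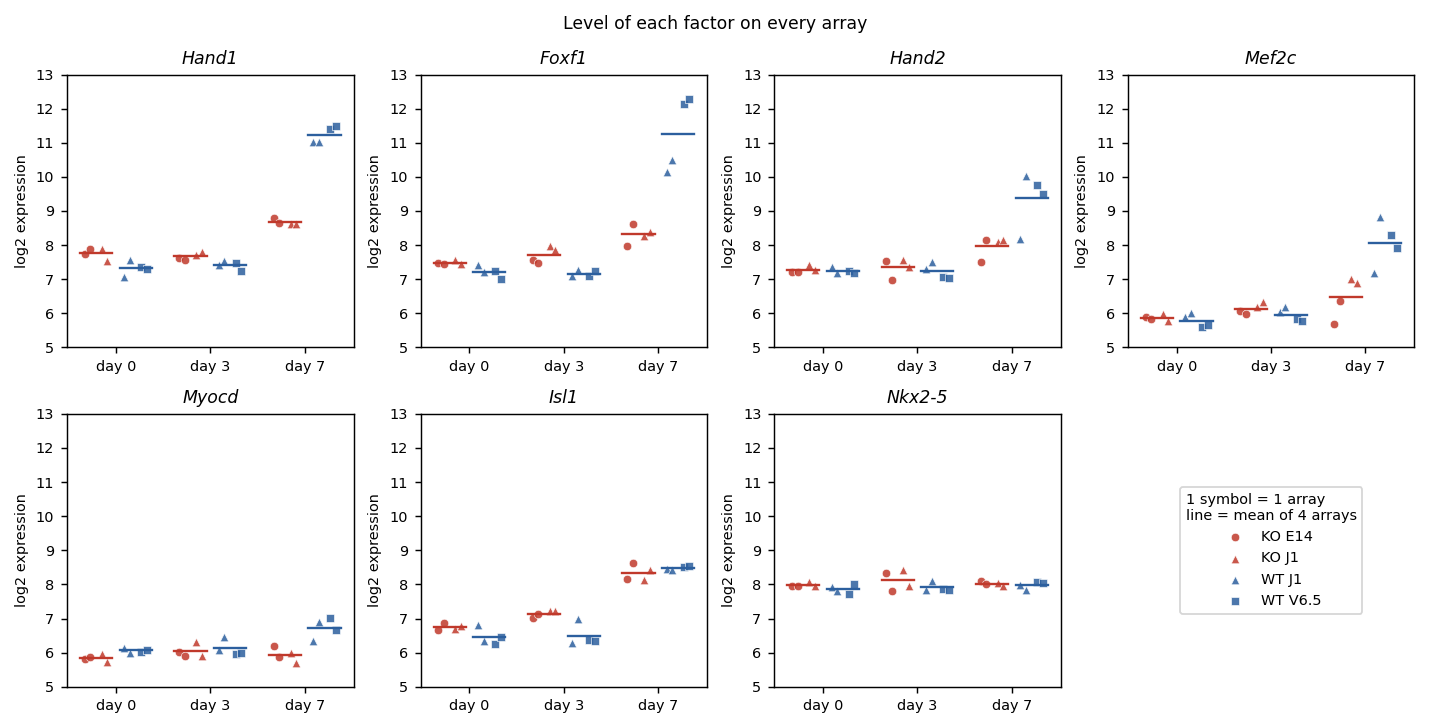
Level of each of the 7 factors (log2 expression, y axis) on each of the 24 arrays by day, with KO to the left of WT, 1 symbol per array, symbol shape for the line and a line at the mean of 4 arrays. The WT arrays of day 7 stand above the rest for Hand1 and Foxf1, Isl1 is raised on day 7 in both genotypes, and Nkx2-5 lies between 7.73 and 8.41 throughout.

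Hand1 separated the genotypes with little spread among arrays. On day 7 it measured 8.80 and 8.66 in KO E14 and 8.61 and 8.62 in KO J1 arrays, against 11.02 and 11.03 in WT J1 and 11.40 and 11.49 in WT V6.5 arrays. Every WT array thus lay at least 2-fold above every KO array. The means were 8.67 ± 0.09 in KO and 11.24 ± 0.25 in WT (SD, n = 4 each), a difference of -2.56 with a standard error of 0.139 (limma adjusted p = 6.7e-12), and -2.78 without both WT J1 arrays. With the 2 arrays of a clone and day averaged first, the limma adjusted p was 2.7e-05. Before day 7 the gene lay between 7.52 and 7.89 in KO arrays and between 7.06 and 7.57 in WT arrays. The 4 KO arrays of day 7 were therefore above all arrays of days 0 and 3, and below all WT arrays of day 7.

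Foxf1 had the widest difference of the 7 factors. It measured 7.98 and 8.63 in KO E14 and 8.26 and 8.38 in KO J1 arrays on day 7, against 10.15 and 10.50 in WT J1 and 12.13 and 12.28 in WT V6.5 arrays. The genotypes did not overlap, and the WT lines formed 2 separate levels. The means were 8.31 ± 0.27 in KO and 11.27 ± 1.09 in WT (SD, n = 4 each), a difference of -2.95 (95% interval -3.64 to -2.27, adjusted p = 9.5e-07). With the 2 arrays of a clone and day averaged first, the limma adjusted p was 0.0057. The difference was -3.91 without both WT J1 arrays. A second Foxf1 probe set, whose mean over all arrays was lower, also separated the genotypes. It measured 7.88 and 8.85 in KO E14 and 8.45 and 8.89 in KO J1 arrays, against 10.88 and 11.35 in WT J1 and 12.08 and 12.39 in WT V6.5 arrays.

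Hand2 is the close relative of Hand1, and its WT arrays were more scattered. It measured 7.5 and 8.16 in KO E14 and 8.08 and 8.15 in KO J1 arrays on day 7, against 8.19 and 10.04 in WT J1 and 9.75 and 9.5 in WT V6.5 arrays. A single WT J1 array lay only just above the KO arrays, and the other WT arrays stood at 9.5 or more. The difference was -1.40 with a standard error of 0.288 (adjusted p = 0.0014), and -1.69 without both WT J1 arrays (adjusted p = 8.9e-07).

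Mef2c is the muscle activator of the set. It measured 5.68 and 6.36 in KO E14 and 7.00 and 6.89 in KO J1 arrays on day 7, against 7.19 and 8.82 in WT J1 and 8.31 and 7.92 in WT V6.5 arrays. The genotypes came close without overlapping, the highest KO and the lowest WT arrays both being of line J1. The difference was -1.58 with a standard error of 0.282 (adjusted p = 0.00036), and -1.70 without both WT J1 arrays.

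Myocd, the coactivator of SRF, differed in the same direction but by less than 2-fold. It measured 6.20 and 5.86 in KO E14 and 5.98 and 5.69 in KO J1 arrays on day 7, against 6.33 and 6.91 in WT J1 and 7.03 and 6.66 in WT V6.5 arrays. The difference of -0.79 had a 95% interval of -1.13 to -0.46 and an adjusted p of 0.0013, and it was -0.94 without both WT J1 arrays. With no fold minimum 6.23% of all genes were lower in KO on day 7, and Myocd was among them. The gene was dim: it exceeded 6.32, the 95th percentile of 1027 olfactory receptor genes that serve as a level for silent genes, on 5 arrays, of which 4 were WT arrays of day 7 and 0 were KO arrays of day 7. Mef2c exceeded that level on 7 arrays, all of day 7, and the other 5 factors on 22 or more of the 24 arrays. The level is pooled over other probe sets, so a value above it does not by itself show that a factor was expressed.

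Isl1 reached nearly the same level in both genotypes. On day 7 it measured 8.16 and 8.62 in KO E14 and 8.13 and 8.41 in KO J1 arrays, against 8.44 and 8.41 in WT J1 and 8.5 and 8.53 in WT V6.5 arrays. The KO range enclosed the WT range. The difference was -0.14, with a 95% interval of -0.47 to 0.20 that excludes a 2-fold change in either direction. It was -0.24 without both WT J1 arrays.

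Nkx2-5, the heart muscle homeodomain factor, did not separate the genotypes or the days. Its 4 arrays a group had medians of 7.95, 8.14 and 8.02 in KO and 7.87, 7.85 and 8.01 in WT on days 0, 3 and 7. On day 7 the difference was 0.04 (95% interval -0.23 to 0.31), or -0.06 without both WT J1 arrays, and its range over the 12 means of a clone and day, 0.33, was wider than that of only 10.6% of genes. The corresponding range was 5.07 for Foxf1 and 4.14 for Hand1, wider than those of 99.9% and 99.5% of genes. Whether the flat level of Nkx2-5 reflects its RNA or the background of its probe set was not tested.

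In undifferentiated cells and on day 3 the differences between genotypes lay between -0.22 and 0.65 for all 7 factors. None of the 7 was called on day 0, when limma called 0.552% of genes in either direction, or on day 3, when it called 0.757%. At an unadjusted p under 0.05 there was 1 factor on day 0, Hand1 (difference 0.44, adjusted p = 0.11), and 1 on day 3, Isl1. The share of all genes at that unadjusted level is not given, here or below. Such unadjusted counts are therefore not read as a result about the genes. Isl1 measured 7.01 and 7.12 in KO E14 and 7.22 and 7.21 in KO J1 arrays on day 3, against 6.29 and 6.99 in WT J1 and 6.37 and 6.33 in WT V6.5 arrays. All KO arrays were above all WT arrays, 3 of which lay close together and 1 of which, WT J1 replicate 2, lay nearer to KO. The difference of 0.65, or 1.57-fold, had an adjusted p of 0.034 and so missed the fold minimum. With no fold minimum 1.58% of genes were higher in KO on day 3. Without WT J1 replicate 1 of day 3 the adjusted p was 0.097, and it was 0.05 or more under 10 of 40 alternative settings.

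Foxf1 on day 3 measured 7.57 and 7.48 in KO E14 and 7.96 and 7.87 in KO J1 arrays, against 7.08 and 7.28 in WT J1 and 7.08 and 7.23 in WT V6.5 arrays. Every KO array was higher. The difference was 0.55 on the probe set used here, with an adjusted p of 0.55, or 0.03 when the spread was estimated without both WT J1 arrays of day 7, and stayed under 2-fold. On the second probe set, which was looked at after the first, it was 1.02, or 2.03-fold, with an adjusted p of 0.048. KO arrays were above WT arrays without overlap for Foxf1 alone on day 0, an order that 6.33% of all genes showed, and below them for Myocd alone, as were 5.01%. On day 3 the KO arrays were all higher for Hand1, Isl1 and Foxf1, against 6.12% of genes.

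**Figure D2:**
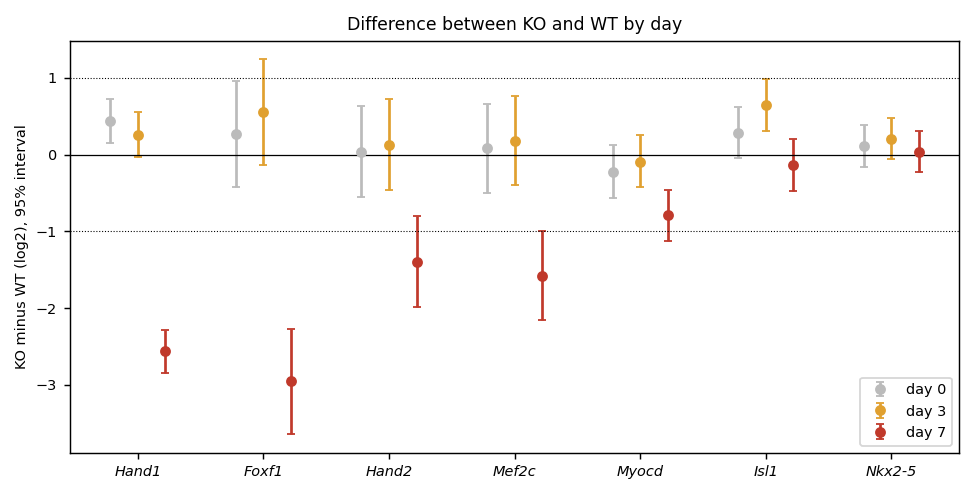
Difference between KO and WT (log2, y axis) for each factor on days 0, 3 and 7, as points with 95% intervals from limma and dotted lines at a 2-fold difference. The points of days 0 and 3 lie between -0.22 and 0.65, and those of day 7 lie below -1 for Hand1, Foxf1, Hand2 and Mef2c.

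From day 0 to day 7, 5 of the 7 factors rose in WT cells, against 5.09% of all genes called higher over that interval. Foxf1 rose by 4.04 (16.5-fold), Hand1 by 3.92 (15.1-fold), Mef2c by 2.27, Hand2 by 2.13 and Isl1 by 2.01, with standard errors of 0.118 to 0.282 and adjusted p-values of 2.4e-07 or lower. The same count of 5 was called without both WT J1 arrays of day 7, with values of 5.01, 4.14, 2.40, 2.43 and 2.1. In KO cells only Isl1 was called, with a rise of 1.58, or 3-fold (standard error 0.138, adjusted p = 4.3e-08), while 2.05% of genes were called higher.

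Other factors gave smaller KO values over the same interval. Hand1 differed by 0.91 (adjusted p = 9e-06) and Foxf1 by 0.82 (adjusted p = 0.047), both under the fold minimum. With no fold minimum 9.25% of genes were higher on day 7 in KO cells and 17.4% in WT cells, where Myocd joined with 0.67 (adjusted p = 0.00043). Hand2 gave 0.69 and Mef2c 0.62 in KO cells, with adjusted p-values of 0.055 and 0.085, which were 0.00065 and 0.012 when the spread was estimated without both WT J1 arrays of day 7. The second Foxf1 probe set was called in KO cells, with 1.96 (adjusted p = 2.9e-06), beside 5.44 in WT cells, so the failure of Foxf1 to reach the fold minimum there holds for 1 of its 2 probe sets.

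Between days 0 and 3 no factor was called, either in KO cells, with 1.17% of genes called, or in WT cells, with 2.04%. Shares this low leave little room for a call among 7 genes. In WT cells the differences of day 3 from day 0 lay between -0.05 (Foxf1) and 0.17 (Mef2c). The change from day 3 to day 7 was not tested, and no day between them was sampled. At an unadjusted p under 0.05 limma gave 1 factor in KO cells, Isl1 (0.39, adjusted p = 0.096), and 0 in WT cells, where Isl1 measured 0.03.

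The change from day 0 to day 7 itself differed between genotypes for 4 factors, all with a smaller change in KO cells, a call made for 1.45% of genes. The difference of the changes was -3.22 for Foxf1 (adjusted p = 1.4e-05), -3.0 for Hand1 (2.4e-11), -1.66 for Mef2c (0.003) and -1.44 for Hand2 (0.01). It was -0.58 for Myocd and -0.42 for Isl1, with adjusted p-values of 0.073 and 0.22. Without both WT J1 arrays of day 7 the same 4 were called, at -4.18, -3.22, -1.78 and -1.74, and Myocd gave -0.72 (adjusted p = 0.018). The Foxf1 and Hand1 calls held when any 1 of the 4 clones was left out, but Mef2c and Hand2 lost theirs without KO E14 (-1.20 and -1.37, adjusted p = 0.14 for each) and without WT V6.5 (-1.44 and -1.16, adjusted p = 0.14 and 0.24), and Hand2 also without KO J1 (-1.5, adjusted p = 0.1).

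**Figure D3:**
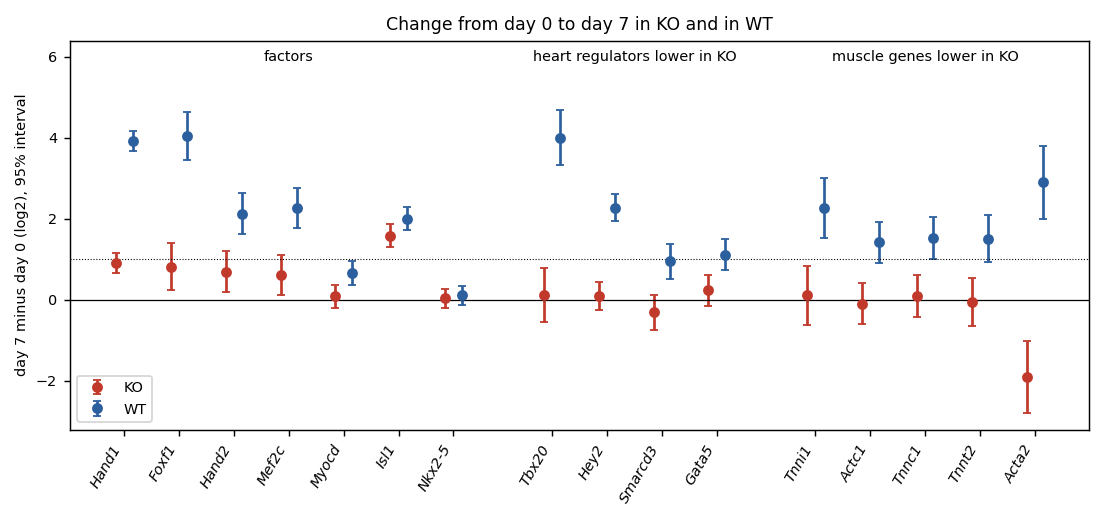
Change from day 0 to day 7 (log2, y axis) in KO and WT cells for the 7 factors, for the 4 other heart regulators lower in KO on day 7, and for the muscle genes lower in KO, as points with 95% intervals from limma and a dotted line at a 2-fold rise. WT points stand above 2 for Foxf1, Hand1, Mef2c, Hand2 and Isl1, and among the KO points of the 7 factors only that of Isl1 lies above 1.

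Line J1 gives the 1 comparison of genotypes within a named line. In it 0.456% of genes were called on day 0 and 1% on day 3, and no factor was among them. At an unadjusted p under 0.05 limma gave 1 factor on day 0 (Hand1) and 2 on day 3 (Isl1 at 0.58, and Foxf1 at 0.73 with an adjusted p of 0.03 but under 2-fold). On day 7, 3 factors were lower in KO J1 than in WT J1 arrays, against 1.38% of genes: Hand1 by -2.41, Foxf1 by -2.01 and Mef2c by -1.06 (adjusted p = 0.035). Hand2 gave -1.0 (adjusted p = 0.073) and Myocd -0.78 (0.014), short of 1 criterion each. These values rest on the pair of WT J1 arrays that agreed poorly. Without its replicate 2, Mef2c gave -0.25 (adjusted p = 0.53), Hand2 -0.07 (0.88) and Myocd -0.49 (0.17). Without its replicate 1 they gave -1.87 (2.8e-06), -1.93 (5e-06) and -1.07 (0.0011), the lone WT J1 array being assumed to vary like the other groups. Mef2c also lost its call without KO J1 replicate 1 (-1.11, adjusted p = 0.1) or replicate 2 (-1.01, 0.17). Hand1 gave -2.42 and -2.40, and Foxf1 -2.18 and -1.84, without WT J1 replicate 1 and replicate 2, and both stayed called.

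Few of these genes were called between lines of 1 genotype. Within KO cells, no factor was called between E14 and J1 on day 0, 3 or 7, when 0.396%, 0.0451% and 0.998% of genes were called, and limma gave 0, 1 (Foxf1) and 1 (Mef2c) factors at an unadjusted p under 0.05. The Mef2c value on day 7 was -0.92 (E14 minus J1), with an adjusted p of 0.15, or 0.0028 when either WT J1 array of day 7 was left out of the fit. Within WT cells, no factor was called between V6.5 and J1 on days 0 and 3, when 0.953% and 0.637% of genes were called, with 0 factors at an unadjusted p under 0.05 on either day. On day 7 Foxf1 was 3.67-fold higher in V6.5 than in J1 (1.88, standard error 0.176, adjusted p = 6.8e-06), where 0.592% of genes were called higher. It was 1.70 and 2.05 without WT J1 replicate 1 and replicate 2, and 1.12 (adjusted p = 0.018) on the second Foxf1 probe set. Hand1 gave 0.42 in the same direction (adjusted p = 0.14). Hand2 gave 0.51, with 1.43 (called) without WT J1 replicate 2 and -0.42 without replicate 1, so its direction rests on 1 array. Over all genes those settings called 787 and 586 genes, against 198.

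Across the 12 means of a clone and day the factors fell into different patterns, described here without a test because the means share clones and arrays. Hand1, Hand2, Foxf1 and Mef2c correlated with each other at r = 0.94 to 0.99, with Hand1 and Hand2 the closest pair. Isl1 correlated with these 4 at 0.8 to 0.85 and Myocd at 0.81 to 0.85, but Isl1 and Myocd with each other at 0.51. Nkx2-5 stayed at 0.08 to 0.39 with all the others.

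Outside the set, Prdm6, a PR domain regulator known from smooth muscle, was the gene most like Hand2 (r = 0.994) and Hand1 (0.989), among 5367 genes whose 12 means span at least 1. It was also among the 3 genes most like Foxf1 (0.984). Prdm6 measured 7.16 and 7.57 in KO E14 and 7.47 and 7.44 in KO J1 arrays on day 7, against 8.84 and 9.80 in WT J1 and 10.38 and 10.00 in WT V6.5 arrays, without overlap. The genes most like the other factors were Dok4 for Foxf1 (0.984), Gimap4 for Mef2c (0.988) and Marchf10 for Myocd (0.962). Isl1 was matched by Plat, the tissue plasminogen activator (0.991), which also averaged nearly alike on day 7, 8.97 in KO and 9.01 in WT. For Nkx2-5 the closest gene, Tlcd4, reached 0.871.

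Other regulators of the heart differed in both directions, by day. Of 18 measured heart transcription regulators, 4 were lower in KO on day 7 and 0 higher, with a median difference of -0.40. Tbx20, a T-box factor of the embryonic heart, measured 7.86 and 7.71 in KO E14 and 7.51 and 7.62 in KO J1 arrays, against 9.31 and 10.54 in WT J1 and 10.89 and 11.16 in WT V6.5 arrays. All WT arrays were above all KO arrays, and the difference was -2.80 (adjusted p = 1.3e-05). On day 3 the order was the opposite: Tbx20 averaged 8.37 ± 0.4 in KO and 6.28 ± 0.34 in WT arrays (SD, n = 4 each), a difference of 2.09 without overlap (adjusted p = 0.0032). Tbx3, named here after its value was seen, was also higher in KO on days 0 (1.27) and 3 (1.32), and no gene of the list was called lower on those days. The other 3 lower on day 7 were Hey2, a Notch-responsive repressor of the ventricle (-1.78), Smarcd3, a chromatin remodelling subunit of heart progenitors (-1.17), and Gata5, a zinc finger factor of the endocardium (-1.07). For Smarcd3, the WT J1 arrays (7.46, 7.63) lay nearer to the highest KO array (7.23) than to V6.5 (9.19, 8.82). Gata5 showed the same order, its WT J1 arrays (7.20, 7.59) being nearer to the highest KO array (7.12) than to V6.5 (8.68, 8.28). The differences of Smarcd3 and Gata5 thus rest largely on V6.5, a line that has no KO here. Their differences within J1 are not given. Tbx20 and Hey2 rose in WT cells from day 0 to day 7, by 4.01 and 2.28, and gave 0.12 and 0.10 in KO cells. Without both WT J1 arrays of day 7, 6 of the 18 were lower, Gata4 and Gata6 being added.

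Among signals that act on cardiac and lateral mesoderm, 11 of 21 rose in WT cells from day 0 to day 7. On day 7, 3 were lower in KO and 1 was higher. The 3 were the ligands Bmp5 (-2.33), Wnt2 (-2.03) and Bmp2 (-1.76), and the 1 was Dkk1, a secreted Wnt antagonist (1.46, with 10.6 ± 0.55 in KO and 9.14 ± 0.82 in WT, SD, n = 4 each). Of 15 primitive streak and cardiac progenitor genes, Kdr, the VEGF receptor of early mesoderm (-2.23), and Snai2 (-1.16) were lower in KO, and Foxc2 was higher (1.06). Foxc2 lost its call and Pdgfra was lower too when both WT J1 arrays were left out.

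Lateral plate mesenchyme regulators went both ways, with 4 of 15 higher in KO and 2 lower, and a median of 0.12. Prrx1, a homeobox gene of limb mesenchyme, measured 9.41 and 10.95 in KO E14 and 10.70 and 10.45 in KO J1 arrays, against 8.77 and 7.91 in WT J1 and 7.02 and 7.27 in WT V6.5 arrays. All KO arrays were above all WT arrays, the opposite of the order at Hand1 and Foxf1, and the difference was 2.64 (adjusted p = 1.9e-05). Tbx18 (1.77) and Foxd1 (1.69) were also higher in KO, whereas Msx2, a target of BMP signalling, was lower (-1.39).

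A minority of muscle genes was lower in KO too. Of 20 heart muscle genes 4 were lower in KO on day 7 and 0 higher, with a median of -0.13: Tnni1 (-2.15), Actc1 (-1.77), Tnnc1 (-1.53) and Tnnt2 (-1.49), which encode thin filament proteins. Tnnt2 measured 7.53 and 7.23 in KO E14 and 7.58 and 7.44 in KO J1 arrays, against 7.51 and 9.67 in WT J1 and 9.56 and 9.0 in WT V6.5 arrays. WT J1 replicate 1 lay within the KO range, as it nearly did for Hand2. Of 11 smooth muscle genes 1 was lower, Acta2 (-3.24, with 8.54 ± 1.02 in KO and 11.78 ± 1.1 in WT, SD, n = 4 each). Without both WT J1 arrays Myl4 and Des were lower as well. On day 0 Acta2 was higher in KO without overlap, by 1.57, but was not called (limma adjusted p = 0.12). Of 9 skeletal muscle genes 0 were called in limma, with 1 at an unadjusted p under 0.05 (Acta1, -0.29).

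**Figure D4:**
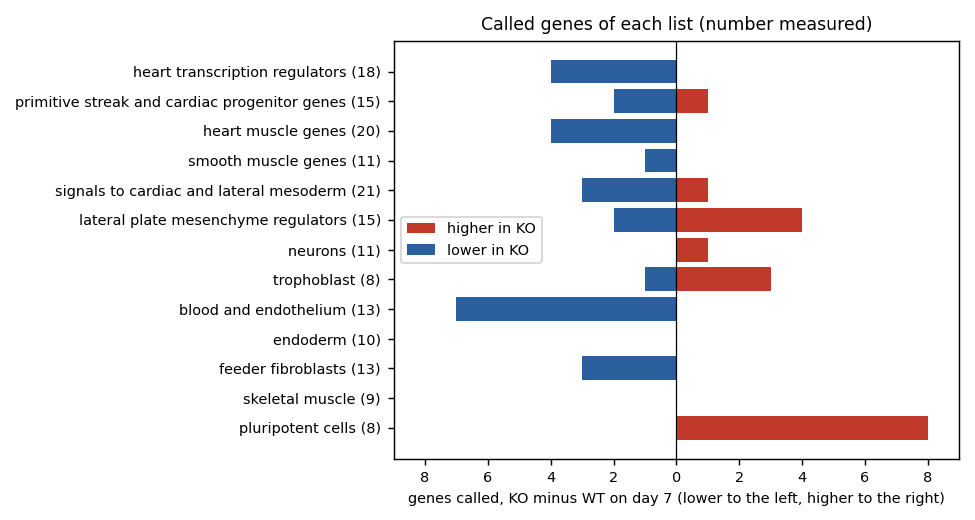
Number of genes called lower (bars to the left) and higher (bars to the right) in KO than in WT on day 7 for each list (y axis, number measured in brackets; x axis, genes). Heart transcription regulators, heart muscle genes, smooth muscle genes, blood and endothelium, and feeder fibroblasts have bars to the left only. The longest of these, with 7 genes, is that of blood and endothelium. The pluripotency list has 8 of 8 genes to the right.

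Markers of other cell types also differed between genotypes on day 7. In bulk RNA, fewer cells of a type and less RNA per cell cannot be told apart. All 8 pluripotency genes were higher in KO (median 3.56), and their mean level was 11.31 to 11.79 in KO and 7.72 to 8.45 in WT arrays. All 8 fell in WT cells from day 0 to day 7, when 3.89% of genes were called lower. The list for blood and endothelium had 7 of 13 genes lower in KO and 0 higher, with list means of 7.12 to 7.93 in KO and 8.8 to 10.31 in WT arrays. The widest differences of that list were at globins of primitive red cells: Hba-x (-5.79), Hbb-bh1 (-7.40) and Hbb-y (-6.61). The count was 11 of 13 without both WT J1 arrays.

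Feeder-type fibroblast genes gave 3 of 13 lower in KO on day 7 (Postn -2.25, Col1a1 -1.65, Col1a2 -1.20), with overlapping list means of 7.46 to 8.06 in KO and 7.47 to 8.9 in WT arrays, and 5 lower without both WT J1 arrays. On day 0 the same list had means of 7.74 to 8.86 in KO and 7.29 to 7.59 in WT arrays. Trophoblast genes, which matter here because HAND1 also acts in trophoblast, had 3 of 8 higher in KO (Krt7 2.04, Tfap2c 1.77, Plet1 1.37) and 1 lower (Cdx2 -1.23). Of 11 neuronal genes 1 was higher, Stmn2 (1.75), and 3 without both WT J1 arrays. Of 10 endoderm genes limma called 0, with 3 at an unadjusted p under 0.05, among them Ttr at -1.57 and Afp at 1.11 (adjusted p = 0.18 and 0.16). When both WT J1 arrays were left out, Afp was higher and Cxcr4 lower in KO. The part of these cell types in the results for the 7 factors was not tested.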

How the data were processed

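The authors deposited 1 table of log2 expression values for 35556 probe sets on 24 arrays, for which the submitters' processing notes name RMA and Affymetrix Power Tools. No version, build or annotation of that step is stated in the sources used. Platform annotation named 21789 probe sets with 1 gene symbol, 1621 with several and left 12146 unlisted, and the highest-mean probe set of each gene gave 19938 genes. Low values were kept. In R 4.3.3, limma 3.58.1 (lmFit, eBayes) fitted 6 means of genotype and day with the clone as a random block (duplicateCorrelation, statmod 1.5.0, correlation 0.161, 18 residual degrees of freedom). Comparisons of lines used 12 means of clone and day. Tests are two-sided, with Benjamini-Hochberg adjustment over all genes. The fit was tested on simulated data. Deviations from group means correlated at -0.4 to 0.47 (median 0.06) over 66 pairs of groups, 30 of them above 0.1. Replicate numbers were not taken to pair samples in the main fit. Whether samples of the same replicate number shared a batch was not tested.

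Named besides the 7 genes are Eed, genes among the 3 with the highest Pearson r to each, and, per list, the called genes (at most 4, or 2 where none was called). The remaining names were chosen after their values were seen. Members and lists were chosen with earlier results of these data known. Genes of the lists without a usable probe set here were not analysed here. Promoter sequences are from RefSeq (GRCm38.p6). The number of arrays limits the precision. Alternatives covered normalization, filters, probe sets, blocks, variance models and arrays left out.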

Additional observations from a re-analysis of the deposited data

Results flagged for a closer look

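Of the 42 groups of 4 arrays examined (7 factors, 6 groups each), in 4 a single array lay far from the other 3 by Dixon's gap criterion, which chance alone meets in about 1 in 20 groups. Hand2 measured 7.5 in KO E14 replicate 1 on day 7, against 8.08 to 8.16 in the other KO arrays. Isl1 measured 6.99 in WT J1 replicate 2 on day 3, against 6.29 to 6.37 in the other WT arrays. Nkx2-5 measured 8.07 in KO J1 replicate 1 on day 0, against 7.94 to 7.95 in the other KO arrays, and 8.11 in WT J1 replicate 2 on day 3, against 7.83 to 7.86 in the other WT arrays.

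Between KO and WT, 4 factors changed unequally over days 0 to 7 in limma's test of that difference. The values, KO change minus WT change, were -3.22 for Foxf1, -3.0 for Hand1, -1.66 for Mef2c and -1.44 for Hand2.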

How the results depend on the processing

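Up to 41 alternatives were tried for each comparison of genotypes and days, and up to 33 for each comparison within a line or genotype. Of 4324 recomputed values of the 7 factors, 4301 kept their call, 8 lost it, 15 gained it and 0 reversed. Most of these values belonged to comparisons in which the factor was not called, so the kept calls are mainly of that kind. The 4 factors lower in KO on day 7 were called under every alternative that tested them, the replicate block included, with adjusted p-values up to 0.041 (Hand2, without clone KO E14); the filter at the median left out Mef2c, and so called 3. Their differences ranged from -3.91 to -2.01 for Foxf1, -2.78 to -2.35 for Hand1, -2.04 to -1.11 for Mef2c and -1.81 to -1.14 for Hand2. With no fold minimum, Myocd joined on day 7 (5 factors), on day 7 within J1 and in WT from day 0 to day 7, 1 factor was called on day 3 (KO minus WT), 1 on day 3 within J1, and 3 in KO from day 0 to day 7 (main count 1). The second Foxf1 probe set gave 1, 1 and 2, and the mean of all probe sets gave 2 in KO from day 0 to day 7. Restricting genes to those with a mean at or above the median, 7.49, removed Mef2c, Isl1 and Myocd from the test and left 0 in KO and 3 in WT. For the difference of changes from day 0 to day 7, 2 factors were called without clone KO E14 and 2 without clone WT V6.5, against 4, and the cause was not tested. Leaving out single arrays gave 2 to 5 factors for J1 on day 7 (main count 3) and 1 to 2 for V6.5 against J1 on day 7 (main count 1). The replicate block, a paired fit on the replicate number, changed no call. Over all genes the count called on day 7 was 870, against 527 with the filter at the median, where fewer genes were tested, and 3250 with no fold minimum. Hand2 within J1 was called after quantile normalization (-1.15, adjusted p = 0.048). Averaging of arrays, omission of the clone block and omission of a clone were not run for the comparisons of lines. Dim signal limits Myocd and Mef2c.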
